A study of Mus musculus with 9 samples.

Results

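Genes that carry a RIKEN clone number in place of a name were examined in the testes of wild type (WT) and Rfx2-/- mice. A gene was included when its GENCODE M21 symbol began with 1700 and ended with Rik and when at least 10 reads were counted for it over all libraries. This gave 128 genes of the 23074 in the table, and the minimum removed none of the 128 symbols of this form. In the annotation 98 of them are protein coding, 16 are long intergenic RNAs, 8 are antisense RNAs and the other 6 are pseudogenes or a bidirectional promoter RNA.

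The libraries came from whole testes without their capsule, 1 per mouse, of 5 WT and 4 Rfx2-/- males aged 29 to 30 days. All animals were of a mixed C57BL/6, 129/Sv and FVB/N background. The knockout allele lacks a single floxed exon that codes for much of the DNA binding domain, and the exon was removed by crossing with a line that expresses Cre in all tissues under the ACTB promoter, so the loss was not restricted to germ cells or to the testis. The comparison asked which testis RNAs depend on RFX2.

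RFX2 belongs to the RFX transcription factors, which bind a palindromic element, the X-box, in the promoters of many genes for cilia and flagella. In the testis it is made in spermatocytes and early round spermatids, the haploid cells that then build an acrosome and a flagellum. RIKEN clones numbered 1700 were taken from a cDNA library of adult mouse testis, so these symbols mark transcripts that were first sequenced from testis. Genes that were later studied received a proper name, and those that keep the number are mostly without a known function.

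The libraries held 13574764 to 15193330 counts, apart from Rfx2-/- replicate 1 with 28800855. Levels are given as CPM, the count relative to library size after TMM scaling, and as mean ± SD over 5 WT or 4 Rfx2-/- testes. Rfx2 mRNA, most of whose exons remain in the knockout, fell from 549 ± 54.5 to 146 ± 59.8 CPM with no overlap (log2 fold change -1.91, edgeR adjusted p = 7.81e-04). Markers of spermatogonia, spermatocytes, spermatids and somatic cells were all detected. The 14 markers of elongating spermatids were all below 0 on the log2 scale with a median of -0.76, and 1 of them was called lower. Their summed level was 9621 to 20250 CPM in WT and 7615 to 11980 CPM in Rfx2-/- libraries, and its part in the results below was not tested. The 12 markers of round spermatids had a median of -0.06, with 8 below 0 and 1 called lower. The 10 markers of late spermatocytes had a median of -0.13, with 7 below 0 and 0 called. The 12 of meiotic prophase had a median of 0.29, with 3 below 0 and 0 called. The study's sections of testes of this age showed late spermatids with condensed nuclei in WT and an arrest at the round spermatid phase in Rfx2-/- mice. From counts of whole testis alone, fewer cells of a type and less RNA per cell cannot be told apart. WT replicate 3 and Rfx2-/- replicate 2 stood apart in the genes studied here, as described with the values per library. Rfx2-/- replicate 2 also stood apart over all genes tested. A chi-square per gene between its counts and those of the other knockout libraries was 99.1 to 218. Between pairs of those other libraries it was 19.3 to 37.5, and the cause was not tested.

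As the X-box is the element through which RFX2 acts on a promoter, the promoters were searched for a 14-letter form, GTTNCC followed by any 2 letters and GGNAAC, in which 10 letters are fixed and which reads the same on both strands. RefSeq windows (GRCm38.p6) from 250 bases before to 50 bases after a start site were found for 95 of the 128 genes. The stretches below are shown because they are the closest matches in the genes discussed first, together with the 3 exact matches in bound promoters of genes that were not called. Starts are those of RefSeq, and the GENCODE start lies upstream of the 14 letters in 1700109H08Rik and within them in 1700001C02Rik. Capitals mark the 14 letters and all are written 5′ to 3′ on the strand of the gene. The first 6 belong to genes called lower, with 1 mismatch in 1700109H08Rik (chr5:3571640-3571669, plus strand) and 2 mismatches in 1700012P22Rik (chr4:144438795-144438824, minus), 1700001C02Rik (chr5:30466029-30466058, plus), 1700018F24Rik (chr5:145042957-145042986, plus), 1700028P14Rik (chr19:23652813-23652838, minus) and 1700003H04Rik (chr3:124581187-124581216, minus). The last 3 are the exact matches in 1700010I14Rik (chr17:8988300-8988329, plus), 1700029J07Rik (chr8:45975256-45975285, minus) and 1700034J05Rik (chr6:146954432-146954461, minus).
1700109H08Rik: gctgggaaGTTGCCATGGCCACattctgtt
1700012P22Rik: cagagtctGTCACCATGGAGACagtcaaca
1700001C02Rik: ggcatgtgGTTGCCGGGTGACCagctggct
1700018F24Rik: atgatgctGGTTACCAGGTAACcagaggcc
1700028P14Rik: cctcctcgGTTGCTAAGGAGACaaga
1700003H04Rik: ccatggttTTTACCAAGCTAACattgaaca
1700010I14Rik: tatttactGTTTCCATGGCAACtgcagctt
1700029J07Rik: gttctcccGTTCCCACGGCAACgcggccta
1700034J05Rik: gttcctttGTTGCCATGGTAACcaacagtc

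An exact match was found for 4 of the 95 genes, against 0.529% of all genes with a window. With up to 2 mismatches the counts were 6 of 12 genes called lower and 19 of 82 not called, against 15.8% of all genes and 54.1% of genes with an RFX2 peak at the promoter. None of the 12 windows of called genes held an exact match to this form. Of all genes called lower with a window, 1.62% held an exact match and 33.6% a match with up to 2 mismatches. Against that share, 12 windows are too few for 0 exact matches to be read as a result. Only a spacing of 2 letters was searched. The 1700018F24Rik window held GTTACC and GGTAAC with only the letter A between them, which counted as 2 mismatches. The same letters lie in 1700001J03Rik and 1700123K08Rik, which were not called. A match is a description of the sequence and not evidence of a site.

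Of the 128 genes, 124 had enough reads to be tested, and 17 of them (13.7%) were called lower in Rfx2-/- testes while 0 were called higher. Over all 15613 genes tested, 3.68% were called lower and 0.826% higher. The filter on low counts was passed through WT libraries alone by 5 genes of the series and 113 of all genes. Through Rfx2-/- libraries alone it was passed by 0 and 33. For such genes the direction of change was fixed by the filter. Calls required more than a 2-fold change together with an adjusted p no higher than 0.01 in edgeR's quasi-likelihood test. At an unadjusted edgeR p under 0.05 there were 36 lower and 10 higher genes of the series, where 13.7% of all genes were lower and 13.9% higher. DESeq2 also called 0 genes of the series higher. The median log2 fold change of the 124 genes was -0.15, and 58.9% were below 0, compared with a median of 0.03 and 46.9% over all genes. Scaled by library totals alone, the median of the series was -0.01 and that of all genes 0.16. The called genes were 14 of 97 protein coding genes tested and 3 of 27 other RNAs, of which 2 are antisense RNAs and 1 is a long intergenic RNA. They lay on 11 chromosomes, with 3 each on chromosomes 2, 5 and 19.

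**Figure D1:**
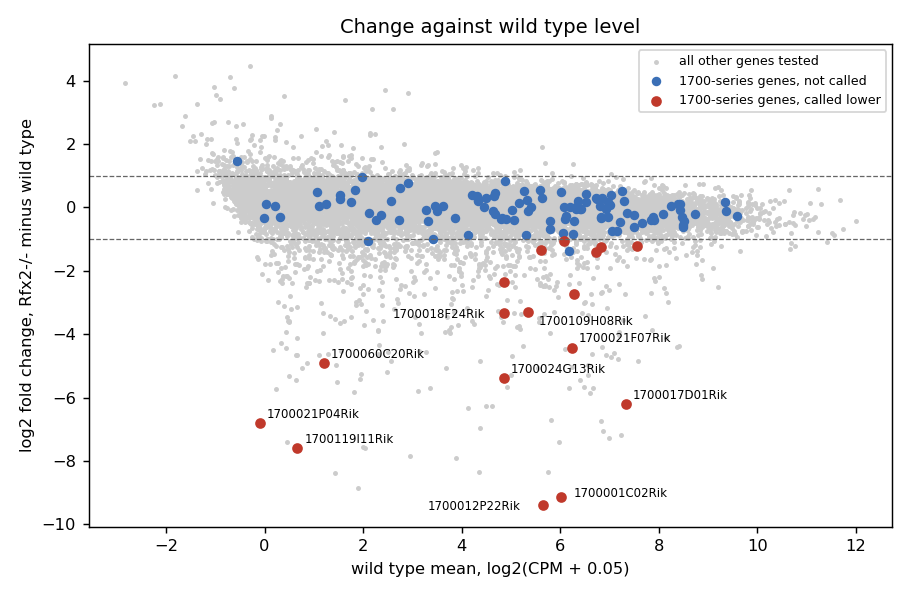
Change in Rfx2-/- testes (log2 fold change, y axis) against the WT mean (log2 of CPM + 0.05, x axis) for all genes tested, with dashed lines at 2-fold; red points are the 17 genes of the series called lower, blue points the 107 not called and grey points all other genes. The called genes span WT means of 0.883 to 187 CPM, and 8 of them retain under 5% of the WT mean.

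The called genes fell into 3 ranges by what remained in the knockout. In 8 genes the Rfx2-/- mean was under 5% of the WT mean, in 4 it was 9.89% to 19.4%, and in 5 it was 37.3% to 47.8%. These ranges were set after the values were seen.

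The largest fold changes were in 1700012P22Rik and 1700001C02Rik. Both were well expressed in WT, where a larger fold can be measured than in genes with few reads. Positions and strands of the called genes are those of GENCODE M21 on GRCm38. 1700012P22Rik (ENSMUSG00000028589, chr4:144418189-144438772, minus), since named Cfap107 for a protein of the microtubule lumen in cilia and sperm flagella, had 665, 654, 602, 699 and 743 counts in the WT libraries and 1, 1, 1 and 2 counts in the Rfx2-/- libraries. This corresponds to 50.2 ± 6.44 and 0.0748 ± 0.0407 CPM. Scaled to library size, the summed counts were 749-fold higher in WT (exact 95% interval 321 to 2308, counting error only), and the edgeR adjusted p was 3.41e-09. 1700001C02Rik (ENSMUSG00000029182, chr5:30466047-30484088, plus), which the RefSeq table names Fam166c, had 888, 912, 621, 881 and 1036 counts in WT and 3, 1, 2 and 2 in Rfx2-/- testes. On the same scale its counts were 604-fold higher in WT (exact 95% interval 306 to 1399), with an edgeR adjusted p of 5.28e-09. Both transcripts were thus close to absent in all 4 knockout testes, the most deeply sequenced library included. Both genes passed the filter on low counts only through the WT libraries, so their p-values add no support for a direction.

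1700017D01Rik (ENSMUSG00000024729, chr19:11096816-11130876, minus) had the highest WT level of this range, with 155.8, 163.8, 130.4, 153 and 199.6 CPM in WT and 2.36, 3.41, 1.77 and 1.05 CPM in Rfx2-/- testes (log2 fold change -6.21, SE 0.31, edgeR adjusted p = 6.78e-08). The RefSeq table names it Ms4a20, a member of a family of membrane-spanning proteins. The neighbouring family member 1700025F22Rik (Ms4a19 in the table), named here after its values were seen, had 49.3 ± 7.86 CPM in WT and 60.0 ± 20.6 CPM in Rfx2-/- and was not called (log2 fold change 0.28, edgeR adjusted p = 0.417). Ms4a13, outside the series and 4098 bases from 1700025F22Rik, was called lower (log2 fold change -2.99, edgeR adjusted p = 1.74e-06). It too was named after its values were seen. 1700024G13Rik (ENSMUSG00000072473, chr14:32376068-32388391, minus), a coding gene without a known function, had 20.3 to 35.4 CPM in WT and 0.398 to 1.07 CPM in Rfx2-/- libraries (log2 fold change -5.39, SE 0.28, edgeR adjusted p = 1.14e-07). 1700021F07Rik (ENSMUSG00000027518, chr2:173522586-173528501, plus), the mouse gene for a ciliary microtubule inner protein (Cimip1), had 92.4, 57.1, 50.2, 85.2 and 90.1 CPM in WT and 4.78, 2.07, 2.79 and 4.06 CPM in Rfx2-/- testes (log2 fold change -4.42, SE 0.30, edgeR adjusted p = 9.29e-07). In these 3 called genes of the series the lowest WT library was more than 10 times the highest knockout library.

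The other genes of the lowest range were non-coding RNAs near the limit of detection. The antisense RNA 1700119I11Rik (ENSMUSG00000082488, chr13:91861432-91862044, plus) had 29, 27, 8, 26 and 12 counts in WT and 0 in each Rfx2-/- library, which makes it at least 8.78-fold lower against a floor of 3 counts per library (edgeR adjusted p = 8.58e-04). It shares exon sequence on the opposite strand with Ckmt2, a mitochondrial creatine kinase that was itself called lower (20.2 ± 4.30 CPM to 0.0675 ± 0.0780 CPM). The shared part is 8.59% of its 50-base words, and reads in exons of both genes were left out unless strand was used. Over its other exons, without knowledge of strand, reads from the Ckmt2 strand cannot be told apart from its own. The long intergenic RNA 1700021P04Rik (ENSMUSG00000096796, chr19:24064793-24066452, plus) had 14, 11, 10, 10 and 14 counts in WT and 0 in all Rfx2-/- libraries, at least 5.04-fold lower (edgeR adjusted p = 1.58e-04). The antisense RNA 1700060C20Rik (ENSMUSG00000078957, chr2:158192008-158195749, plus) had 25 to 37 counts in WT and 2, 2, 0 and 1 in Rfx2-/-, a 33.6-fold ratio of summed counts scaled to library size (exact 95% interval 14.1 to 105; edgeR adjusted p = 7.67e-06). The first and the second of these RNAs no longer passed the filter on low counts without single WT libraries, so their calls rest on few reads. All of these RNAs passed that filter only through the WT libraries, so their p-values add no support for a direction.

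**Figure D2:**
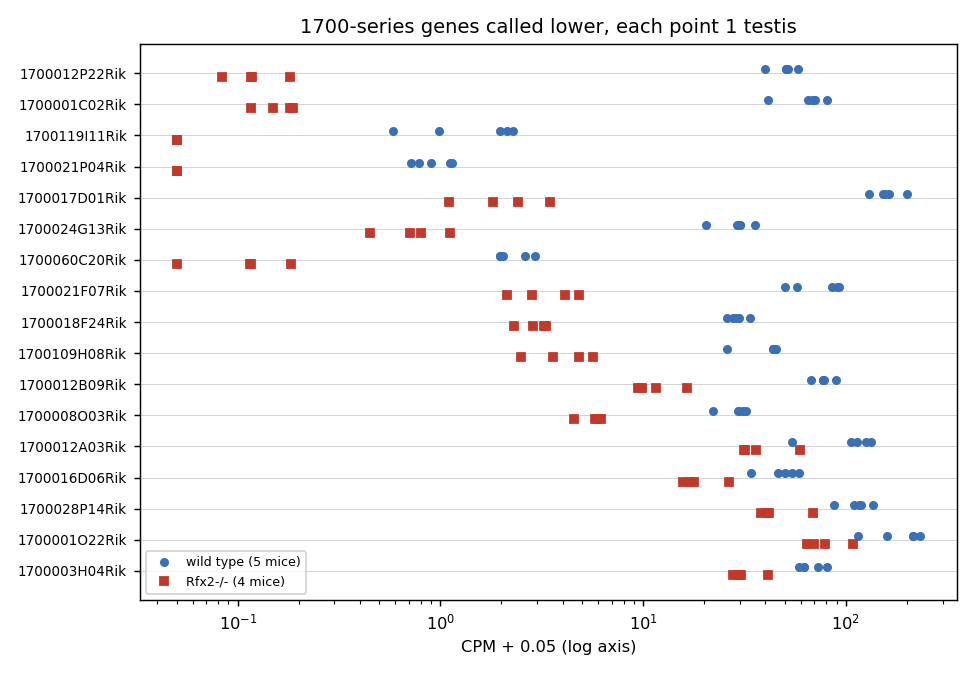
Level of the 17 called genes in every library (CPM + 0.05, log axis), with the 5 WT testes as circles and the 4 Rfx2-/- testes as squares, ordered by fold change. The genotypes are separated in 16 of the genes and overlap in 1700012A03Rik, and 1700119I11Rik and 1700021P04Rik are at 0 counts in every Rfx2-/- testis.

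In the middle range 1700018F24Rik (ENSMUSG00000029620, chr5:145042990-145045681, plus) had 33.6, 28.7, 26.0, 27.7 and 29.7 CPM in WT and 3.19, 3.28, 2.25 and 2.81 CPM in Rfx2-/- testes (log2 fold change -3.33, SE 0.17, edgeR adjusted p = 7.86e-08). It shares 62.1% of its 50-base words with Gm4871, which lies 10236 bases away and was also called lower (17.2 ± 3.31 to 1.89 ± 0.343 CPM), so the levels of this pair are uncertain where reads could not be assigned to 1 copy. 1700001J03Rik and 1700123K08Rik, elsewhere on chromosome 5, carry the same 14 letters before their starts as 1700018F24Rik. They were not called, with log2 fold changes of -0.06 and -0.44 and edgeR adjusted p of 0.897 and 0.335, and both were named after their values were seen.

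1700109H08Rik (ENSMUSG00000008307, chr5:3571566-3584356, plus) had 45.4, 44.8, 25.7, 43.5 and 43.7 CPM in WT and 4.78, 5.62, 2.45 and 3.53 CPM in Rfx2-/- testes (log2 fold change -3.30, SE 0.26, edgeR adjusted p = 4.14e-06). The end of its exons overlaps Rbm48 on the opposite strand, which was not called and had 12.6 ± 1.70 CPM in WT and 18.7 ± 3.20 CPM in Rfx2-/-. 1700012B09Rik (ENSMUSG00000031927, chr9:14756587-14771030, minus) ranged from 67.2 to 89.7 CPM in WT and from 9.41 to 16.4 CPM in Rfx2-/- testes (log2 fold change -2.73, SE 0.19, edgeR adjusted p = 1.14e-06). 1700008O03Rik (ENSMUSG00000008028, chr7:44360043-44385820, minus) had 21.9 to 32.0 CPM in WT and 4.50 to 6.15 CPM in Rfx2-/- testes (log2 fold change -2.36, SE 0.17, edgeR adjusted p = 1.58e-06). It overlaps exons of Shank1 on the opposite strand and shares 14.1% of its 50-base words with other genes, while Shank1 was not called (26.6 ± 4.41 against 26.7 ± 18.2 CPM). The knockout libraries of all 4 genes lay below every WT library.

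The 5 genes between 37.3% and 47.8% of the WT mean were nearer to the limit of 2-fold. 1700012A03Rik (ENSMUSG00000029766, chr6:32050246-32058921, plus), which the naming rule left out because its libraries overlap, had 114, 126, 54.3, 106 and 132 CPM in WT and 31.9, 59.4, 36.1 and 31.4 CPM in Rfx2-/- testes (log2 fold change -1.42, SE 0.27, edgeR adjusted p = 0.00484). 1700016D06Rik (ENSMUSG00000031509, chr8:11654924-11701063, minus) had 34.1 to 58.9 CPM in WT and 15.7 to 26.5 CPM in Rfx2-/- (log2 fold change -1.34, SE 0.20, edgeR adjusted p = 8.65e-04). 1700028P14Rik (ENSMUSG00000033053, chr19:23558753-23652812, minus), since named Cfap95 for a protein of the ciliary and flagellar axoneme, had 116, 110, 87.0, 119 and 136 CPM in WT and 38.1, 69.0, 40.6 and 41.6 CPM in Rfx2-/- testes (log2 fold change -1.26, SE 0.20, edgeR adjusted p = 0.00138). In each of the 5 genes Rfx2-/- replicate 2 was the highest knockout library.

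The remaining 2 genes of this range were the closest to the limit. 1700001O22Rik (ENSMUSG00000044320, chr2:30794769-30803661, minus) ranged from 115 to 233 CPM in WT and from 64.6 to 108 CPM in Rfx2-/- testes (log2 fold change -1.23, SE 0.23, edgeR adjusted p = 0.00412). 1700003H04Rik (ENSMUSG00000039174, chr3:124556352-124581101, minus) had 58.6 to 80.9 CPM in WT and 27.7 to 41.3 CPM in Rfx2-/- (log2 fold change -1.07, SE 0.16, edgeR adjusted p = 9.10e-04). None of the 5 genes passed a test against 2-fold itself, in which 12 genes of the series and 1.74% of all genes were called lower, so that a change of more than 2-fold was not shown for them. All 17 genes of the series with an adjusted p at or under 0.01 exceeded 2-fold and 0 lay within it.

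Just outside the limits, 6 lower genes had an adjusted p between 0.01 and 0.05, which brought the lower genes to 23 without the limits of 0.01 and 2-fold, against 7.31% of all genes. 1700080E11Rik (Nudt16l2 in the RefSeq table) had 36.6 to 97.4 CPM in WT and 19.0 to 49.0 CPM in Rfx2-/-, with overlap (log2 fold change -1.38, edgeR adjusted p = 0.0172), and 1700067K01Rik had 33.2 to 46.0 and 16.4 to 29.5 CPM without overlap (log2 fold change -0.88, edgeR adjusted p = 0.0106). Both were named after their values were seen, and both were called when Rfx2-/- replicate 2 was left out.

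On the higher side no gene passed. At an adjusted p at or under 0.05 with no fold limit there were 4 higher genes, against 3.48% of all genes. These 4, named after their values were seen, included 1700007K13Rik, which had 20.8 to 34.2 CPM in WT and 41.1 to 63.1 CPM in Rfx2-/- testes without overlap (log2 fold change 0.83, SE 0.19, edgeR adjusted p = 0.0124). 1700013D24Rik, a long intergenic RNA, had 40.3 to 54.0 and 55.1 to 88.8 CPM (log2 fold change 0.54, edgeR adjusted p = 0.0434). 1700024B05Rik had the largest increase, from 0.628 ± 0.147 to 1.79 ± 1.09 CPM (log2 fold change 1.47, edgeR adjusted p = 0.0353), but it had only 7 to 11 counts in the WT libraries and shares 76.0% of its 50-base words with related genes. The fourth was 1700010H22Rik.

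Most genes of the series showed small differences. The 107 genes not called had a median log2 fold change of -0.04 and ranged from -1.38 to 1.47, and 84 of them lay within 0.5 of 0. Knockout libraries lay below every WT library in 19 of the 124 genes (15.3%), against 9.70% of all genes tested, and above every WT library in 5 (4.03%), against 6.16%. The 19 genes comprised 16 of the called genes together with 1700067K01Rik, 1700030K09Rik and 1700025G04Rik.

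The genes with the highest WT levels per kilobase of exon were not among those called. 1700123L14Rik, a single-exon coding gene, had 438 CPM per kb in WT and 361 in Rfx2-/- testes. Its level was 647 to 904 CPM in WT and 430.5 to 791 CPM in Rfx2-/- libraries (log2 fold change -0.28, SE 0.18, edgeR adjusted p = 0.337). The processed pseudogene 1700019M22Rik followed with 417 CPM per kb in WT and 305 in Rfx2-/- (log2 fold change -0.45, edgeR adjusted p = 0.220), and 1700029F12Rik had 372 and 324 CPM per kb (log2 fold change -0.20, edgeR adjusted p = 0.487). 1700013G24Rik had 343 and 224 CPM per kb (log2 fold change -0.61, edgeR adjusted p = 0.109). 1700003F12Rik had 311 and 319 CPM per kb (log2 fold change 0.03, edgeR adjusted p = 0.943), a difference whose sign turned when Rfx2-/- replicate 2, WT replicate 3 or the trend with gene length was removed. The libraries of both genotypes overlapped in all 5 genes.

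Per kilobase of exon the series was highly expressed. Its median WT level was 42.8 CPM per kb, against 4.78 for all genes tested, and the 17 called and 107 other genes had similar medians of 42.3 and 43.3 CPM per kb. The genes are short, with a median exon length of 1283 bases against 4213 for all genes, and 73.4% had under 2 kb of exons against 16.2% of all genes.

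Levels also differed between libraries. The median log2 deviation from the WT mean was 0.07, 0.10, -0.37, 0.01 and 0.21 for the 107 genes not called in WT replicates 1 to 5. In Rfx2-/- replicates 1 to 4 it was -0.27, 0.36, -0.24 and 0.00. Thus WT replicate 3 was below the other WT libraries and Rfx2-/- replicate 2 above the other knockout libraries. Among the 2444 tested genes outside the series with under 2 kb of exons, the median was -0.12 in WT replicate 3 and 0.57 in Rfx2-/- replicate 2, and from -0.13 to 0.18 in the rest. For the 12913 longer genes it was -0.14 in Rfx2-/- replicate 2. The part of gene length in the values of the series was not tested beyond removal of a length trend. With the trend removed, 21 genes of the series and 631 of all genes were called lower, where the main fit called 575 of all genes. For the 17 called genes the medians were -2.27, -2.13, -2.54 and -2.27 in the 4 knockout libraries, and these genes were low in each of them. Without Rfx2-/- replicate 2, 23 genes of the series were called lower, among them all 17, and 632 of all genes.

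**Figure D3:**
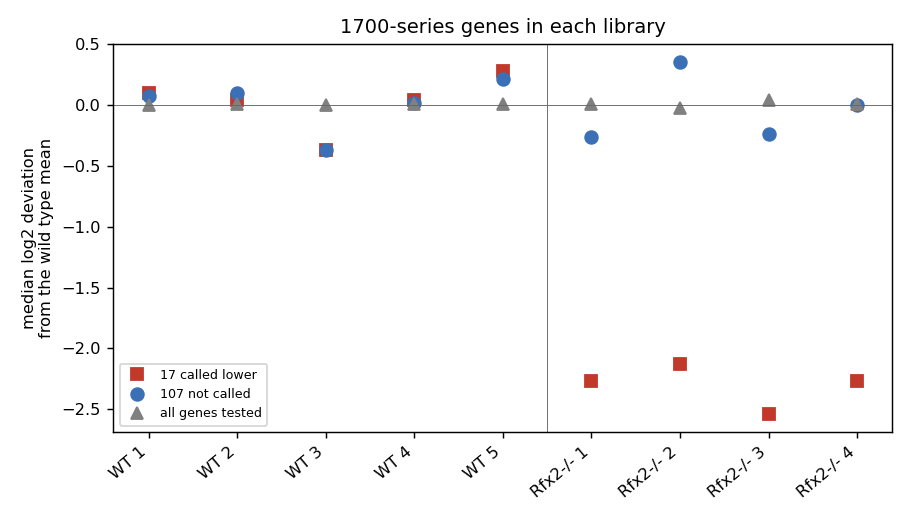
Median log2 deviation from the WT mean (y axis) in each of the 9 libraries, for the 17 called genes (squares), the 107 genes not called (circles) and all genes tested (triangles), computed from CPM + 0.5. The called genes lie at -2.13 to -2.54 in all knockout libraries, while the genes not called range from -0.27 to 0.36 there.

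The study also located RFX2 on chromatin by immunoprecipitation in dissociated germ cells of younger WT mice, and its list of genes with a promoter peak was set beside these counts. Its text and methods give a narrower and a wider promoter window around the start, and which of them made the list is not known here. A peak was listed for 21 of the 128 genes, of which 20 were tested. Among these, 6 (30.0%) were called lower and 0 higher, with a median log2 fold change of -0.30. For the 104 tested genes without a peak the values were 11 (10.6%) and 0, with a median of -0.12. Over all genes tested, 11.1% of the 953 with a peak and 3.20% of the 14660 without were called lower. The 6 bound and called genes were 1700001C02Rik, 1700017D01Rik, 1700021F07Rik, 1700008O03Rik, 1700028P14Rik and 1700003H04Rik, and they were spread over all 3 ranges of loss. Conversely, 1700012P22Rik and 1700024G13Rik, with some of the deepest losses, had no listed peak.

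The 14 bound genes not called ranged from -0.85 to 0.24 in log2 fold change, and 8 of them were below 0. They included the 3 genes with an exact match to the 14-letter form in the sequences above. 1700010I14Rik had 654 CPM in WT and 736 CPM in Rfx2-/- testes (log2 fold change 0.17, edgeR adjusted p = 0.487), 1700029J07Rik had 67.7 and 68.2 CPM (log2 fold change 0.01, edgeR adjusted p = 0.969), and 1700034J05Rik had 229 and 174 CPM (log2 fold change -0.40, edgeR adjusted p = 0.134). The libraries of both genotypes overlapped in all 3 genes. The nearest to a call were 1700001L19Rik (log2 fold change -0.85, edgeR adjusted p = 0.0215) and 1700016K19Rik (-0.75, edgeR adjusted p = 0.0256). CREM is another transcription factor of spermatids, and 3 genes of the series were on the study's list of its direct targets, of which 0 were called. With 3.68% of all genes called lower, 3 genes are too few for this count to be read as a result.

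**Figure D4:**
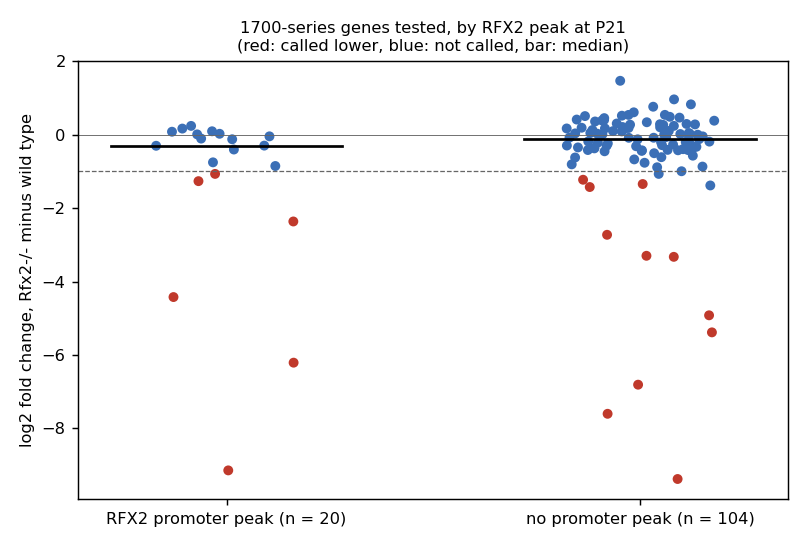
Log2 fold change (y axis) of the 124 genes tested, divided by whether an RFX2 promoter peak was listed, with red points for genes called lower, blue points for genes not called, black bars for medians and a dashed line at 2-fold lower. Of the 20 genes with a peak 6 were called, at all depths of loss, and of the 104 without a peak 11 were called.

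The share called lower was set beside that of the most similar genes. Another large RIKEN testis clone series has symbols such as 4930465I24Rik. Among its 88 tested genes, 11 (12.5%) were called lower and 2 higher, with a median log2 fold change of -0.02. Among 578 tested genes that now have a name but carry a 1700 clone number as a synonym, 43 (7.44%) were called lower and 2 higher, with a median of -0.04. The 14823 other genes had 504 (3.40%) called lower and a median of 0.04. The differences between these shares were not tested.

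**Figure D5:**
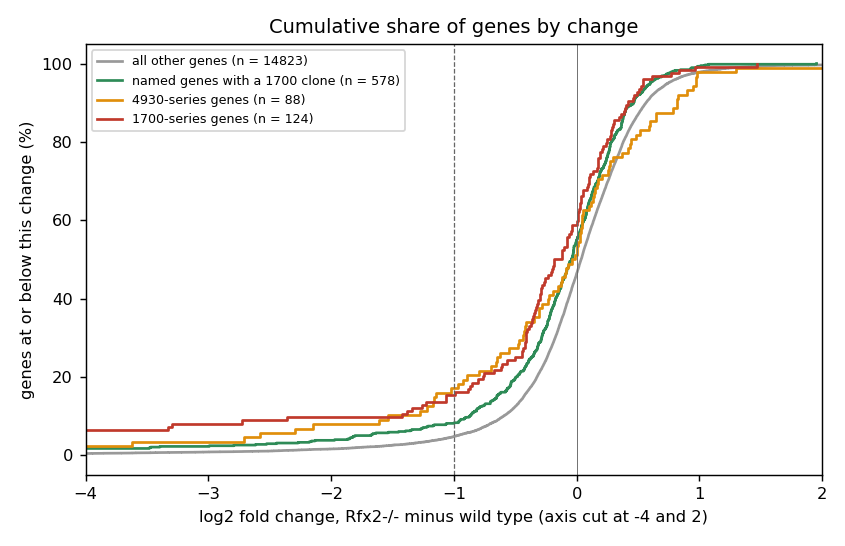
Cumulative share of genes (%, y axis) by log2 fold change (x axis, shown from -4 to 2) for the 1700 series, the other testis clone series (orange), named genes with a 1700 clone and all other genes. At the dashed line of 2-fold lower and below it the curves of both clone series lie above those of named and of other genes, and the 1700 series starts highest because 8 of its genes were below -4.

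Genes close to those called were also examined. A tested neighbour within 20 kb that was called lower was found for 3 of the 17 called genes (17.6%) and 6 of the 107 genes not called (5.61%), against 11.2% of all called and 4.42% of all other genes. The 3 were Gm4871 and Ckmt2, described above, and Cib4, a calcium and integrin binding protein gene next to 1700001C02Rik, which fell from 15.8 ± 4.36 to 3.49 ± 1.21 CPM (log2 fold change -2.18, edgeR adjusted p = 2.74e-04). None of the 17 genes had a tested partner starting within 1 kb in the opposite direction. Such a partner was found for 17 of the 107 genes of the series not called. Over all genes with a position it was found for 41 of 571 called lower and 2197 of 14781 not called. Against these shares, 17 genes are too few for their count to be read as a result.

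The 4 genes that were not tested had few reads. 1700111E14Rik, an antisense RNA with an RFX2 promoter peak, had 3, 3, 1, 1 and 4 counts in WT and 0 in the 4 Rfx2-/- libraries. 1700031F05Rik had 3 to 13 counts in WT and 2 to 6 in Rfx2-/-, 1700036A12Rik 7 to 12 and 2 to 10, and 1700021A07Rik at most 5 counts in any library. With the filter lowered to 10 summed counts, all 4 could be tested and 0 passed. The edgeR adjusted p was 0.0270 for 1700111E14Rik, 0.0865 for 1700036A12Rik, 0.277 for 1700031F05Rik and 0.587 for 1700021A07Rik.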

How the data were processed

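The authors deposited a table of raw read counts per gene, in whole numbers and without normalisation. Per the labels and the study's methods, total RNA was made into TruSeq libraries, reads were mapped to GRCm38 with STAR 2.4, and featureCounts 1.4.6 counted them over exons of protein coding isoforms, without reads of several positions or shared between genes, so genes with near copies lose reads. Another passage of the methods gives Bowtie and another read length for the same libraries. Use of strand is not given in the sources used here.

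Tests were run in R 4.3.3 with edgeR 4.0.16 (quasi-likelihood F test, robust, TMM, filterByExpr) for genotype, and p-values were adjusted by Benjamini-Hochberg over 15613 genes. On simulated counts 98% of 100 genes changed 4-fold and 100% of 100 changed 8-fold were recovered, with 1 false call of 15176. The changed genes were drawn only from genes with many counts. No library stood apart and no length trend was present in the simulation, so these rates do not cover genes near the floor or such effects. The floor was 3 counts per library (0.0996 to 0.234 CPM), the upper 95% limit for 0 counts. Reads carry no molecular identifiers, so floors and intervals cover counting error only.

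Genes named were the 12 called with the largest fold (mean of at least 50 counts, no overlap), called genes with a peak, called genes at 3 or fewer counts in every library of a genotype, the 5 highest per kb and the 3 nearest 2-fold. The genes, lists and limits were chosen with earlier results of these data known. Peaks and CREM targets came from the study's supplementary lists, and symbols and exons from GENCODE M21 (96.6% of IDs matched). The RefSeq tables held 111 of the 128 symbols and 9 more under a new name. Alternatives included DESeq2 1.42.0, other scaling and filters, removal of a gene length trend and leaving out each library.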

Additional observations from a re-analysis of the deposited data

Results flagged for a closer look

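Single libraries stood apart in 4 of the 48 groups examined, each a named gene or a measure over the series in 1 genotype. Chance gives about 2.4 (1 in 20) for independent groups. These groups share the same libraries, so that figure is only a rough guide. WT replicate 3 was low for 1700109H08Rik, with 25.7 CPM against 43.5 to 45.4 CPM in the other WT libraries, and for 1700008O03Rik, with 21.9 CPM against 29.4 to 32.0 CPM. Rfx2-/- replicate 2 was high for 1700028P14Rik, with 69 CPM where the rest of the knockout libraries had 38.1 to 41.6 CPM, and for 1700012A03Rik, with 59.4 CPM against 31.4 to 36.1 CPM. All 4 values lie toward the other genotype.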

How the results depend on the processing

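The count of genes called lower was 17 and ranged from 12 to 23 over 18 alternatives, as it did when single libraries were left out, and 12 of the 17 genes were called under every alternative in which they passed the filter. Over all genes the count was 575 as reported and 447 to 632 without single libraries. The test against 2-fold gave 12, and 7 for the other clone series (11 as reported), with 1.74% of all genes, and an adjusted p of 0.05 with no fold limit gave 23 and 18, with 7.31% of all genes. Genes called higher were 4 of 124 at an adjusted p of 0.05 with no fold limit (3.48% of all genes) and 1 at an unadjusted p of 0.01 (1.68%), and 0 to 1 without single libraries. Genes with a peak called lower were 4 to 8 in all and 5 to 7 without single libraries. Genes without a peak called lower were 7 to 16 without single libraries, and 7 without WT replicate 1, 2 or 5. Genes with no overlap numbered 24 as reported, 38 with the length trend removed and 22 to 38 without single libraries. Leaving out a library makes separation easier for any gene. The share of all genes was not computed for these alternatives, so the counts are no result about the series. The median of the series was -0.25 to -0.08 without single libraries and -0.01 with library totals, which moved that of all genes from 0.03 to 0.16. 1700003F12Rik turned to -0.14 with the length trend removed, -0.04 without WT replicate 3 and -0.26 without Rfx2-/- replicate 2, with a range of -0.26 to 0.23 without single libraries. Lost calls were 1700012A03Rik in 8 alternatives, 1700001O22Rik in 7, 1700003H04Rik in 5, 1700028P14Rik in 2 and 1700016D06Rik in 1, and 1700021P04Rik and 1700119I11Rik failed the filter without single WT libraries. The cause of these changes was not tested. No paired analysis was possible because the labels give animal numbers that the genotypes do not share. At 3 counts per library, changes in the RNAs under 1 CPM are limited by depth.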
